A study of Mus musculus with 10 samples.

Results

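Transcripts of 8 secreted cytokines were followed in mouse bone marrow-derived macrophages: Il6, Lif, Osm and Csf3, Il10, Il12b and Il23a, and Csf1. They were taken by symbol from a table of 57010 gene identifiers, and each symbol matched 1 row. The cells came from marrow of wild-type mice (WT) or of mice with a knockout of WASp (WKO), and all had been grown for 7 days with 20 ng/mL of recombinant mouse M-CSF, the protein that Csf1 encodes. There were 2 WT and 2 WKO libraries of unconfined cells (labelled NC), and 3 WT and 3 WKO libraries of cells held for 1 h at a height of 3 µm under silicone (PDMS) micropillars. Ages, sexes and the WASp allele are not given in the sources used here, and nor is any tie between a library and an animal or culture, so that p-values measure only the spread between these libraries, which may be technical. How unconfined cells were handled is also not given, so that confinement and handling in the device cannot be told apart.

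These cytokines pass messages from macrophages to other cells. Interleukin-6, leukemia inhibitory factor (Lif) and oncostatin M (Osm) act through receptors that contain gp130, the product of Il6st, and granulocyte colony-stimulating factor (Csf3) acts through a receptor of related build; all of them use JAK kinases and STAT3. Interleukin-10 also acts through STAT3 and restrains macrophage activation. Il12b encodes a subunit shared by interleukin-12 and interleukin-23, and Il23a encodes the subunit that is particular to interleukin-23. Csf1 acts through the receptor kinase Csf1r and keeps macrophages alive. Many of these genes are transcribed soon after an inflammatory stimulus through NF-kB, AP-1 and C/EBP factors, and their mRNAs are often short-lived.

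The libraries held between 13295701 and 19329908 reads. A detection floor of 3 reads equalled 2.35 to 3.59 normalized reads at this depth, a bound that covers counting error only because PCR reads without molecular identifiers are not independent molecules. Was, the gene of WASp, lay between 96.9 and 154 in the WKO libraries and between 1308 and 1649 in the WT libraries. Transcripts of macrophage markers were high in every library, with Csf1r at 21303 or above and Lyz2 at 100507 or above. Replicates 1 and 5 of confined WKO cells stood apart from replicate 2: 11 of 11 stromal marker genes were higher in both of them than in replicate 2, and 10 of 11, all but Dcn, had their highest value of all libraries in replicate 5. In these bulk samples, fewer cells of a type and less RNA per cell cannot be told apart.

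Short sequence motifs of the factors named above were looked for near the gene starts. RefSeq promoters of the build GRCm38.p6 were found for 4 of the 8 genes (Csf1, Il6, Lif and Il12b), each with 250 bases before and 50 after the start. The 250 bases before the start are shown for Csf1, whose transcripts were present in every library, and for Il6, whose transcripts were near 0 in most. Capitals mark matches to an NF-kB motif (GGGA, any 4 bases, CC), an AP-1 motif (TGANTCA) or a C/EBP motif (TTGCNNAA), on either strand.
Csf1, chr3:107760470-107760719, minus strand: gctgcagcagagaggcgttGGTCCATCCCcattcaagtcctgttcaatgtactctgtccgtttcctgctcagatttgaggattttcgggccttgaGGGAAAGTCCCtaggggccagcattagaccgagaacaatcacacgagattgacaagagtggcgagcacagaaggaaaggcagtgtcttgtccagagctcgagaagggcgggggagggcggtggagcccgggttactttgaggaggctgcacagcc
Il6, chr5:30012864-30013113, plus strand: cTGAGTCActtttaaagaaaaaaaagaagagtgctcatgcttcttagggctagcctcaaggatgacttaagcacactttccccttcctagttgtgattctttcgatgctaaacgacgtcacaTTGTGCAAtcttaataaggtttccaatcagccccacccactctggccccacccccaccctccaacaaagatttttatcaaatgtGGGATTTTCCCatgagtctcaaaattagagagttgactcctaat
In the Csf1 sequence the capitals are 2 stretches of NF-kB matches, from positions -231 and -155 relative to the start, of which the second holds matches on both strands that overlap. In the Il6 sequence an AP-1 match began at -249, a C/EBP match at -128 and an NF-kB match at -44, the last again with an overlapping match on the other strand. The 50 bases after this Il6 start were not found in the gene's longest annotated transcript, unlike those of Csf1, Lif and Il12b. The Il6 positions therefore hold only for the start used. The Lif promoter, not printed, held an AP-1 match at -228 and an NF-kB match at -178, and no letters of these motifs were found in the window of Il12b. The last motif searched, the cyclic AMP response element (TGACGTCA), was in none of the 4 windows. Among all 32544 RefSeq promoters of this length, 20.8% held the NF-kB motif, 7.79% the AP-1 motif, 10.8% the C/EBP motif and 1.80% the cyclic AMP response element. A match describes the letters and is not evidence of binding.

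The genes fell into a group that passed a filter on low values and a group near 0. In the first group, Lif was low in WT, with 5 to 19 reads in each library against the floor of 3 reads. The mean over the 10 libraries was 733 normalized reads for Csf1, 544 for Osm, 339 for Il10 and 34.3 for Lif, and these 4 passed the filter of a mean of at least 10. Il6, Csf3, Il12b and Il23a had means of 7.39, 4.47, 3.66 and 1.26 and were below it. Per kilobase of exon, Csf1 stood highest in unconfined WT cells, at 78.3 ± 13.9 (SD, n = 2), followed by Osm at 48.4 ± 9.86, Il10 at 16.7 ± 6.06 and Lif at 2.42 ± 1.88, with no overlap between neighbours in that order. In confined WT cells the order per kilobase was Osm at 279 ± 11.0 (SD, n = 3), Il10 at 190 ± 18.6, Csf1 at 167 ± 26.2 and Lif at 2.37 ± 1.01, and the libraries of Il10 and Csf1 overlapped. In confined WKO cells the libraries of Osm, Il10 and Csf1 overlapped in level per kilobase, with means of 438 ± 179, 645 ± 716 and 197 ± 185 (SD, n = 3), and those of Lif lay lower at 17.2 ± 18.0. In unconfined WKO cells Osm (74.7 ± 47.3 per kilobase, SD, n = 2) overlapped Csf1 (69.7 ± 5.34), while Il10 (25.2 ± 12.3) and Lif (7.68 ± 1.89) were lower.

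**Figure D1:**
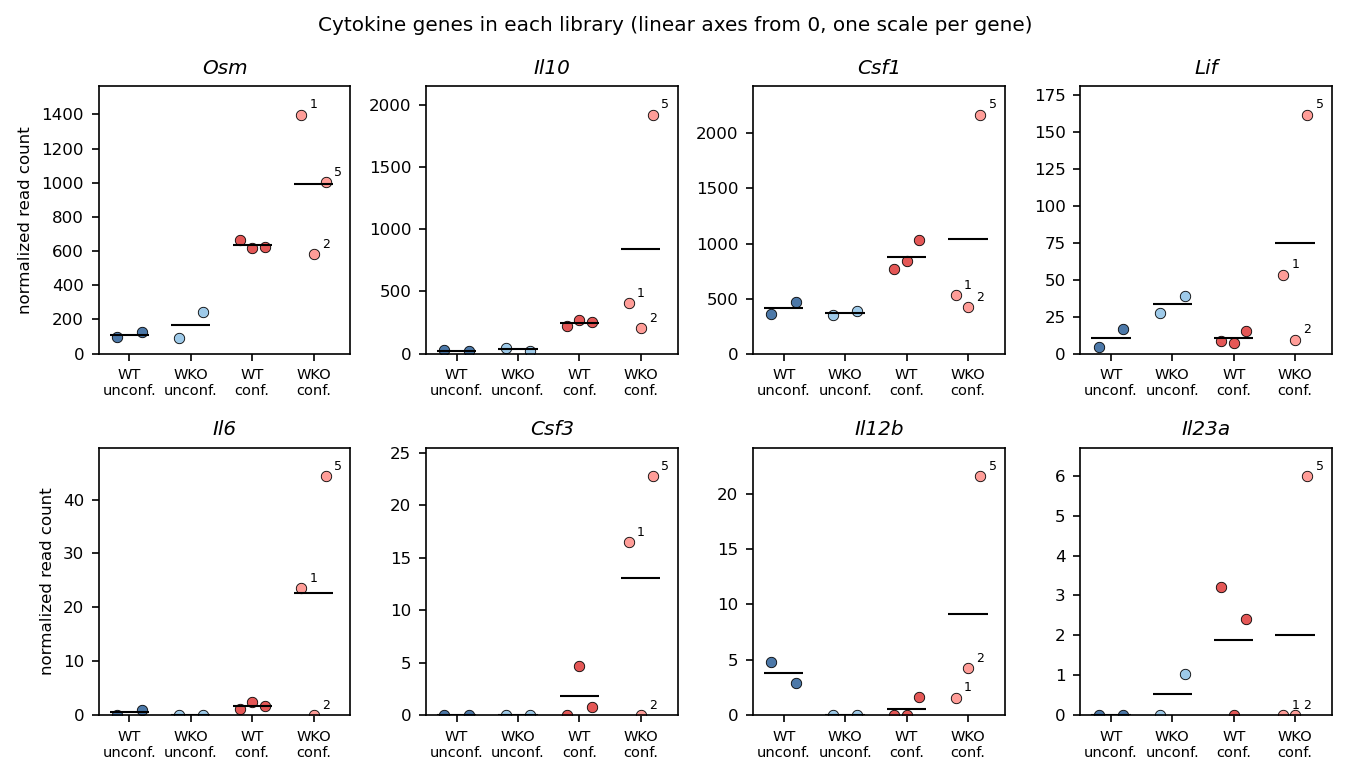
Normalized read count (vertical axes, linear, from 0) of the 8 genes in each library, by group; points are libraries, lines are group means, and small numbers name the confined WKO replicates. Osm and Il10 were higher in all 6 confined libraries than in any unconfined library, and in 7 of the 8 genes the highest point was confined WKO replicate 5.

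The effect of confinement was measured first, in each genotype and as the average of both. Osm and Il10 rose in both genotypes, and no difference between the genotypes in the size of the rise was detected. The mean of Csf1 was 2.13 times as high in confined as in unconfined WT libraries without passing the test, and the libraries of Lif overlapped. On average over both genotypes, 2 of the 4 tested genes passed the limma threshold of an adjusted p of 0.05, both higher, against 6.21% of the 12455 genes tested. The count was 2 of 4 in WT, where 1.16% of all genes passed, and 2 of 4 in WKO, where 1.72% passed. The median log2 fold change of the 4 genes was 1.81 in WT and 1.86 in WKO, beside -0.01 in both for all genes tested.

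Osm (ENSMUSG00000058755) lies on chromosome 11 at 4236420 to 4241026 in GRCm38, 16530 bases before Lif, and encodes a cytokine that myeloid and T cells release and that stromal and liver cells respond to. Its normalized read counts were 94.0 and 126 in unconfined WT and 662, 617 and 621 in confined WT libraries. They were 93.7 and 246 in unconfined WKO and 1398, 583 and 1002 in confined WKO libraries, in the order of replicates 1, 2 and 5. The 3 confined WT libraries lay close together, while the confined WKO libraries spread more than 2-fold, with replicate 1 and not replicate 5 the highest. The means of the normalized read counts differed 5.76-fold in WT and 5.86-fold in WKO. The limma estimates, differences of mean log2 values, were 2.53 in WT (SE 0.384, adjusted p from limma 0.00782) and 2.61 in WKO (SE 0.384, limma adjusted p = 0.00542). Averaged over the genotypes the log2 fold change was 2.57 (95% interval 1.98 to 3.17, limma adjusted p = 0.000209).

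Il10 (ENSMUSG00000016529, chromosome 1 at 131019845 to 131024974) had the largest rise among the 4 tested genes. It was 27.5 and 16.3 in unconfined WT and 223, 271 and 254 in confined WT libraries. In WKO it was 44.4 and 21.7 in unconfined libraries and 408, 204 and 1921 in confined replicates 1, 2 and 5. All confined libraries were thus above all unconfined ones, and confined WKO replicate 5 was 9.40 times replicate 2 of its own group. The means of the normalized read counts differed 11.4-fold in WT and 25.6-fold in WKO, the latter weighted toward replicate 5. The limma estimates are differences of mean log2 values, a different measure. They were 3.49 in WT (SE 0.691, adjusted p from limma 0.0345) and 4.08 in WKO (SE 0.691, limma adjusted p = 0.0123). The average over the genotypes was 3.79 on the log2 scale (95% interval 2.72 to 4.85, limma adjusted p = 0.000963).

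Of the 8 genes, 2 (Osm and Il10) had all 6 confined libraries above all 4 unconfined libraries, as did 4.46% of all tested genes. Among the 4 tested genes, Il10, Osm and Csf1 had confined WT libraries that were all above the unconfined ones, as did 18.3% of all genes tested. The same 3 genes had this pattern within WKO, beside 14.5% of all genes tested. The averaged rises of Osm and Il10 passed the limma threshold without any 1 of the 10 libraries. The calls within a genotype rested on fewer libraries. In WT the Il10 call was lost without either unconfined WT, either unconfined WKO or any 1 confined WT library (limma adjusted p between 0.0504 and 0.301), and the Osm call without unconfined WT replicate 1 (0.121) or replicate 3 (0.0648). In WKO the Il10 call was lost without unconfined WKO replicate 1 (0.0711) or replicate 3 (0.164), and the Osm call without replicate 1 (0.0753).

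Csf1 (ENSMUSG00000014599, chromosome 3 at 107741048 to 107760469, minus strand) encodes the growth factor in which these cells were cultured. It was 362 and 465 in unconfined WT and 769, 838 and 1036 in confined WT libraries. In WKO it was 348 and 388 in unconfined libraries and 531, 423 and 2171 in confined replicates 1, 2 and 5. Confined libraries exceeded unconfined libraries of the same genotype in each case, but confined WKO replicates 1 and 2 lay far below replicate 5 and below all 3 confined WT libraries. The log2 fold change was 1.09 in WT (SE 0.506, limma adjusted p = 0.419) and 1.10 in WKO (SE 0.506, limma adjusted p = 0.355), and the average of both was 1.09 (95% interval 0.31 to 1.87, limma adjusted p = 0.0988). Without confined WKO replicate 5 the difference in WT, whose own libraries are the same, had a limma adjusted p of 0.00298, and the average was 0.73 with a limma adjusted p of 0.00362. The average also passed without confined WKO replicate 1 (1.23, limma adjusted p = 0.0464) or replicate 2 (1.32, limma adjusted p = 0.0454).

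Lif (ENSMUSG00000034394, chromosome 11 at 4257557 to 4272514) encodes a gp130 cytokine known for keeping embryonic stem cells undifferentiated. It was 4.75 and 16.3 in unconfined WT, 8.57, 7.04 and 15.3 in confined WT, 27.6 and 39.2 in unconfined WKO and 53.3, 9.47 and 162 in confined WKO libraries. Confined and unconfined libraries overlapped in both genotypes. Its log2 fold change with confinement was 0.11 in WT (SE 0.936, limma adjusted p = 0.978) and 0.42 in WKO (SE 0.936, limma adjusted p = 0.883). The 95% interval of the average, -1.18 to 1.71, is wide enough to hold a change of more than 2-fold in either direction.

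**Figure D2:**
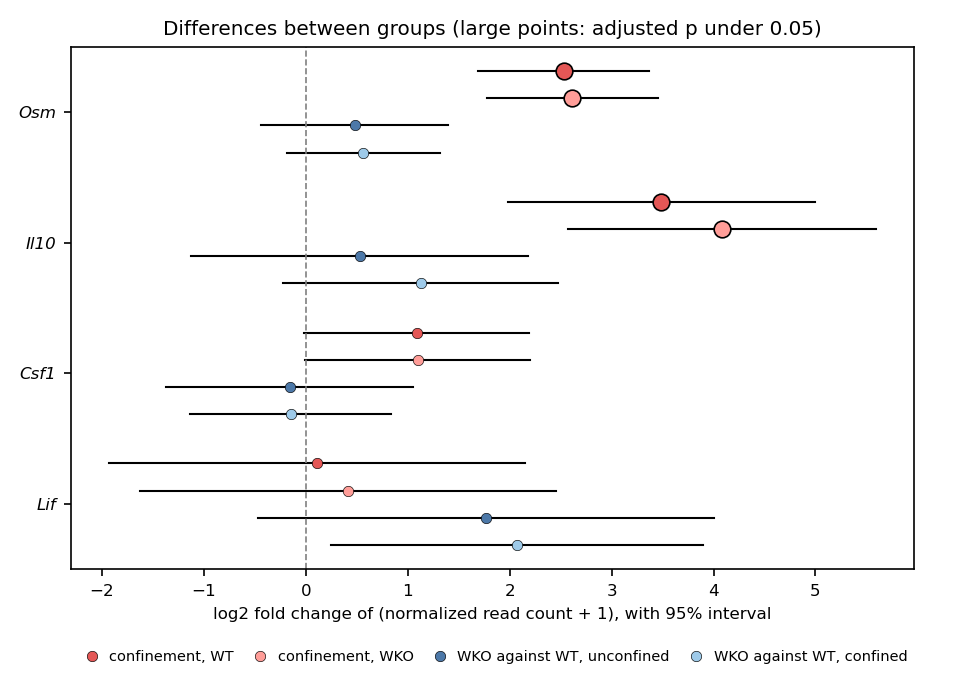
Log2 fold changes (horizontal axis) of the 4 tested genes in 4 comparisons; points are limma estimates, bars their 95% intervals, and large points have an adjusted p under 0.05. The large points are the confinement effects of Osm (2.53 and 2.61) and Il10 (3.49 and 4.08). The points between genotypes are all drawn small because none had an adjusted p under 0.05. Among them, the Lif estimates were 1.77 in unconfined and 2.07 in confined cells.

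The difference between WKO and WT cells was measured in unconfined and in confined cells. None of the 4 tested genes passed in either. In unconfined cells 0.145% of all genes passed, and the log2 fold changes were 1.77 for Lif (limma adjusted p = 0.658), 0.53 for Il10, 0.48 for Osm and -0.16 for Csf1, with limma adjusted p-values up to 0.962. In confined cells 2.59% of all genes passed, and the values were 2.07 for Lif (95% interval 0.24 to 3.90, limma adjusted p = 0.236), 1.13 for Il10 (-0.22 to 2.47, limma adjusted p = 0.399), 0.56 for Osm (-0.19 to 1.31, limma adjusted p = 0.454) and -0.15 for Csf1 (-1.14 to 0.84, limma adjusted p = 0.912). None of these p-values was under the threshold, but Lif had an unadjusted p of 0.0296 in confined cells. Averaged over both conditions, 5.57% of all genes and 0 of the 4 passed; Lif was nearest, at 1.92 (log2 scale; SE 0.662; adjusted p from limma 0.121). None of the 8 genes had all 5 WKO libraries above all 5 WT libraries, a pattern that 3.38% of tested genes showed.

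The confinement effects of the genotypes differed (WKO minus WT) by 0.60 on the log2 scale for Il10 (95% interval -1.54 to 2.73), 0.08 for Osm (-1.10 to 1.27), 0.30 for Lif (-2.58 to 3.19) and 0.01 for Csf1 (-1.55 to 1.57), and the adjusted p from limma was 0.999 for each. No tested gene in the table passed in this comparison (0.0%). The intervals leave room for a difference of more than 2-fold in either direction for each of these 4 genes, so that equal effects are not shown.

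Between the genotypes in confined cells, the calls of Csf1 and Lif turned on single libraries. Without confined WKO replicate 5, Csf1 was lower in WKO than in WT, by an estimate of -0.88 (log2; adjusted p from limma 0.0145). Without replicate 1 or replicate 2 it was 0.13 or 0.30 and did not pass. Without confined WKO replicate 2, Lif was higher in WKO, at 3.13 on the log2 scale and with an adjusted p from limma of 0.0368. DESeq2 also called Lif in confined cells (log2 fold change 2.84, DESeq2 adjusted p = 0.00729), whereas edgeR's quasi-likelihood test did not.

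Among the confined WKO libraries, stromal marker genes moved with several of these values. Fibroblasts and marrow stroma are known makers of Il6, Lif and Csf1, and 11 markers such as Col1a1, Col1a2, Cxcl12 and Pdgfrb were summed. The summed level lay between 808 and 1669 in unconfined WT, 2071 and 2388 in unconfined WKO, 174 and 662 in confined WT, and 745 and 9066 in confined WKO libraries. In WT this level was lower in every confined library than in any unconfined one, while Osm, Il10 and Csf1 were higher. In confined WKO replicate 5 Col1a1 stood at 3402, Col1a2 at 2922 and Cxcl12 at 452, against 180, 273 and 40.0 in replicate 2. Lum, a marker of fibroblasts, was at 0 in 7 of 10 libraries and at most 4.79; Pdgfrb, Pdgfra and Thbs2 were each at 0 in 1 library. Of the 8 cytokine genes, 7 had their highest value in confined WKO replicate 5, and so did 3 of the 4 that were tested, beside 21.9% of all tested genes. Both replicates 1 and 5 were above replicate 2 in 6 of the 8, and in 4 of the 4 tested, beside 27.3% of all tested genes.

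With the mean of the log2 stromal markers as a covariate, chosen as an alternative, the estimates for Lif turned from 2.07 to -1.66 in confined WKO against WT cells (limma adjusted p = 0.805). This mean lay between 2.59 and 4.38 in confined WT and between 4.96 and 7.89 in confined WKO libraries. Because these ranges do not overlap, the fit cannot separate genotype from the markers. In unconfined WT libraries this mean was 4.80 and 5.45, above the confined WT range. The fit therefore cannot separate confinement in WT from the markers either. Without confined WKO replicates 1 and 5, the pair highest in these markers, the same Lif value was -0.04 (limma adjusted p = 0.989), resting on 1 confined WKO library. The averaged confinement effects of Il10 and Osm passed the limma threshold under both settings. Without this pair, confinement in WKO, then resting on 1 confined library assumed to vary like the other groups, still gave passing rises of Il10 (2.68, limma adjusted p = 0.0134) and Osm (1.93, limma adjusted p = 0.0393), smaller than with all libraries. Csf1 was then lower in confined WKO than in confined WT cells (-1.04, limma adjusted p = 0.0358). Neutrophil markers, summed over 9 genes, lay between 6947 and 10773 in unconfined WT, 24914 and 29998 in unconfined WKO, 2558 and 7943 in confined WT and 6996 and 28106 in confined WKO libraries, and their part in the results was not tested. Of the T cell markers, Cd3e and Cd8a were at 0 in 9 of 10 libraries and Cd3d in 8 of 10, while Cd4 was detected in all.

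**Figure D3:**
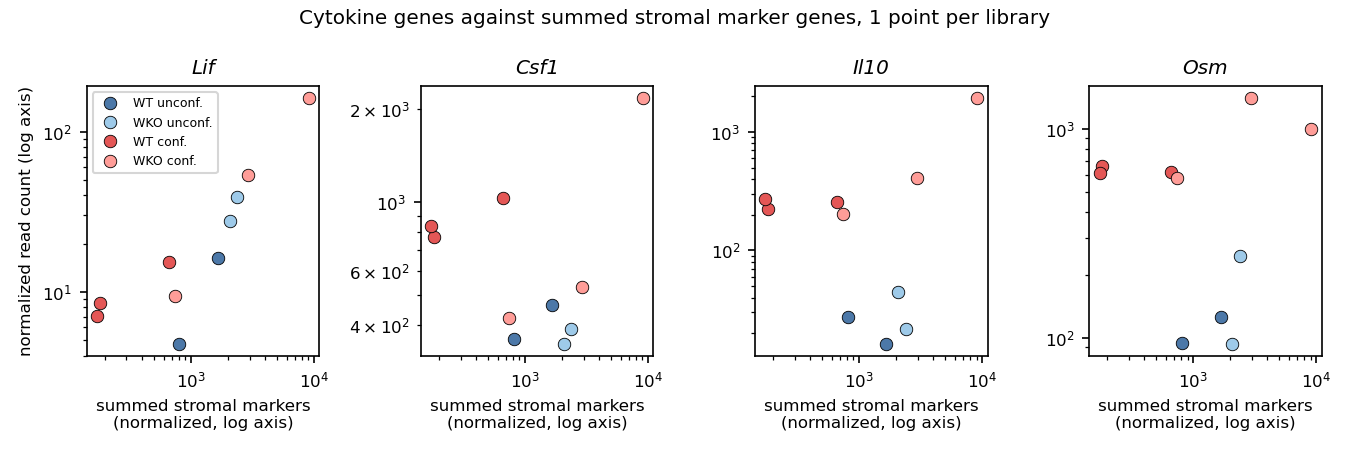
Normalized read count of Lif, Csf1, Il10 and Osm (vertical log axes) against the sum of 11 stromal markers (horizontal log axis), 1 point per library. The point at 9066 on the horizontal axis is confined WKO replicate 5, which is highest for Lif, Csf1 and Il10. For Osm and Il10 the 6 confined libraries lie above the 4 unconfined ones.

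The remaining 4 genes were near 0 in most libraries. Il6 (ENSMUSG00000025746, chromosome 5 at 30013114 to 30019981) had at most 2 reads in each of the 7 libraries outside confined WKO cells. In confined WKO cells it had 30 reads in replicate 1, 0 in replicate 2 and 37 in replicate 5, or 23.5, 0 and 44.3 as normalized read counts. Csf3 (ENSMUSG00000038067, chromosome 11 at 98701263 to 98703629), whose product drives neutrophil production, had 0 reads in all 4 unconfined libraries and at most 4 in a confined WT library. It had normalized read counts of 16.5, 0 and 22.8 in confined WKO replicates 1, 2 and 5. Both genes were thus above the floor in the pair of confined WKO libraries with the highest stromal sums (2929 and 9066) and listed at 0 in the other one. Csf3 was also just above the floor, with 4 reads, in confined WT replicate 3, which had the lowest stromal sum (174). Both genes also had 0 reads in the unconfined WKO libraries, whose stromal sums were 2071 and 2388. A link between these genes and stromal markers was not tested.

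Il12b (ENSMUSG00000004296, chromosome 11 at 44400063 to 44414033) was 4.75 and 2.88 in unconfined WT and at 0 in both unconfined WKO libraries. It was 0, 0 and 1.61 in confined WT and 1.57, 4.21 and 21.6 in confined WKO replicates 1, 2 and 5, so that replicate 5 alone, with 18 reads, lay well over the floor. Il23a (ENSMUSG00000025383, chromosome 10 at 128296139 to 128298752, minus strand) reached 5.99 in confined WKO replicate 5, from 5 reads, and had 3 reads or fewer in each other library. Transcripts of Il23a were therefore not detectable above the floor in 9 of 10 libraries.

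The low genes were tested under alternatives that keep them in. With limma on all 23591 genes that had a read, confinement in WKO gave log2 fold changes of 3.37 for Il6 (limma adjusted p = 0.379), 2.90 for Csf3 (0.436), 2.75 for Il12b (0.258) and 0.42 for Il23a (0.922). With edgeR's quasi-likelihood test on the 17545 genes with a mean of at least 1, the adjusted p-values in the same comparison were 0.179 for Il6, 0.320 for Csf3, 0.288 for Il12b and 0.842 for Il23a. None of the 4 passed in any comparison under these settings. The confined WKO replicates disagreed for Il6 and Csf3, with 30, 0 and 37 reads and 21, 0 and 19 reads, and edgeR's unadjusted p for Il6 in that comparison was 0.00591.

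Genes of the same pathways were taken from fixed lists, which were chosen with earlier results of these data known. Among 17 related ligands, 2 passed the filter on low values and 0 of 2 passed the test in any comparison: Ebi3, a subunit of interleukin-27 and interleukin-35, had group means from 338 to 467, and Clcf1, a gp130 cytokine, from 52.9 to 96.9. Il31, Il20, Il24, Il3 and Il5 were at 0 in all libraries. Csf2, the gene of a myeloid growth factor, was at 0 in all unconfined libraries and reached 59.9 in confined WKO cells, but did not pass the filter. It was chosen after its values were seen.

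Receptor genes did not pass with confinement in either genotype: 0 of 14 tested in WT and 0 of 14 in WKO, with median log2 fold changes of 0.08 and 0.04. Csf1r (mean 27518 over the libraries) and Il6st (3957) were abundant, and Il23r (0.285) and Cntfr (1.11) were below the filter. Between the genotypes in confined cells 2 of 14 rose in WKO, beside 2.59% of all tested genes called: Csf3r, the receptor of the Csf3 product, from 746 ± 187 to 1609 ± 241 (SD, n = 3 in both groups), with a difference of 1.13 on the log2 scale (SE 0.200, adjusted p from limma 0.0154), and Csf1r from 24074 ± 1414 to 33487 ± 3986 (0.47, SE 0.110, limma adjusted p = 0.0464). Averaged over the conditions, where 5.57% of all tested genes were called, 3 were higher in WKO (Csf3r, Csf1r and Il10ra) and 1 was lower (Il27ra, log2 fold change -1.02, limma adjusted p = 0.0208). These 4 also passed without confined WKO replicate 5, where 4 receptor genes were higher and 1 was lower in all. The number of all genes called in this comparison also moved, from 694 with all libraries to between 146 and 1804 across the alternative settings. Csf3r is also a marker of neutrophils, whose summed markers were 21822.5, 28106 and 6996 in confined WKO replicates 1, 2 and 5. The last of these lay within the range of confined WT libraries, 2558 to 7943. A link between Csf3r and these sums was not tested. Csf1r is also 1 of 8 macrophage markers. Their sum lay between 179561 and 208102 in confined WT and between 252962 and 314561 in confined WKO libraries. In unconfined libraries it lay between 206120 and 208283 in WT and between 241895 and 250579 in WKO. Some of these markers, such as Itgam, overlapped between the genotypes. A link between Csf1r and the other macrophage markers was not tested. Between the genotypes in confined cells, Csf1r no longer passed without confined WKO replicate 5 (limma adjusted p = 0.0666), and without replicates 1 and 5 neither gene did (0.195 for Csf1r and 0.0848 for Csf3r). Of the JAK and STAT genes, 0 of 10 passed in any of the 7 comparisons; Jak1 had group means between 4516 and 5443, and Stat3 between 1605 and 2424.

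Of 12 genes known to respond to STAT3, 5 rose with confinement in WT, beside 1.16% of all tested genes called, and 6 in WKO, beside 1.72%. The list's median log2 fold change was 1.28 in WT and 1.58 in WKO. Without confined WKO replicate 5 the count in WT was 7 higher and 1 lower. The number of all genes called in this comparison also moved, from 144 with all libraries to between 20 and 652 across the alternative settings. The lower gene was Bcl6 (-0.73), chosen after its values were seen. Socs3, a feedback inhibitor of cytokine receptors, went from 19.1 ± 0.137 (SD, n = 2) to 1256 ± 609 (SD, n = 3) in WT (5.85 on the log2 scale, SE 0.842, adjusted p from limma 0.00594), and from 70.2 ± 68.6 to 2811 ± 3083 in WKO (5.10, limma adjusted p = 0.0110). Junb, a subunit of AP-1, rose by 2.45 in WT and 2.13 in WKO on the log2 scale. Pim1 (a kinase), Bcl3 (a partner of NF-kB) and Tnfaip3 (an inhibitor of NF-kB signalling) also rose in both, and Nfil3 in WKO. Without confined WKO replicates 1 and 5, which leaves 1 confined WKO library, Socs3 was at 3.52 in WKO, below the 5.10 with all libraries. Many of these genes respond to other signals as well. Between the genotypes 1 of the 12 passed in confined cells, beside 2.59% of all tested genes called. It was Ccnd1 (cyclin D1), lower in WKO by 0.90 on the log2 scale (5443 ± 811 against 10086 ± 896, SD, n = 3, adjusted p from limma 0.0159). Without replicates 1 and 5 its value was -0.70 (limma adjusted p = 0.114).

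Of 15 genes for regulators of cytokine transcription or mRNA decay, 6 rose with confinement in WT, beside 1.16% of all tested genes called, and 6 in WKO, beside 1.72%. Nfkbiz, an NF-kB cofactor known for Il6, rose most: from 78.8 ± 3.94 (SD, n = 2) to 2997 ± 994 (SD, n = 3) in WT (5.18 on the log2 scale, SE 0.630, adjusted p from limma 0.00268), and by 4.66 in WKO (limma adjusted p = 0.0035). Zc3h12a, the gene of an RNase that cleaves cytokine mRNAs, rose by 3.01 in WT and 2.86 in WKO. Rel (an NF-kB subunit), Cebpb (a C/EBP factor) and Tnfaip3 rose by between 1.92 and 2.71 in both genotypes. Tnfaip3 is also on the list of genes that respond to STAT3, so that the counts of these lists share a gene. Without confined WKO replicates 1 and 5, which leaves 1 confined WKO library, Nfkbiz was at 3.47 and Cebpb at 1.65 in WKO. Both were smaller than with all libraries (4.66 and 1.92), and Cebpb was not the only gene of this list whose call was lost. Averaged over both genotypes 6 of the 15 rose and 1 fell, beside 6.21% of all tested genes called. The gene that fell was Irf8 (log2 fold change -0.43, limma adjusted p = 0.0145), which was chosen after its values were seen. A gene on the other strand overlaps exons of Junb, Csf1r, Il27ra, Pim1, Bcl3, Ccnd1 and Cebpb. Their reads are uncertain because the use of strand is not given in the sources used here. Csf3r, Ccnd1 and Cebpb also resemble another transcript. Only 34 genes were checked, and Jak1, Stat3, Il6st, Ebi3, Clcf1, Csf2, Bcl6 and Irf8, among others, were not.

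**Figure D4:**
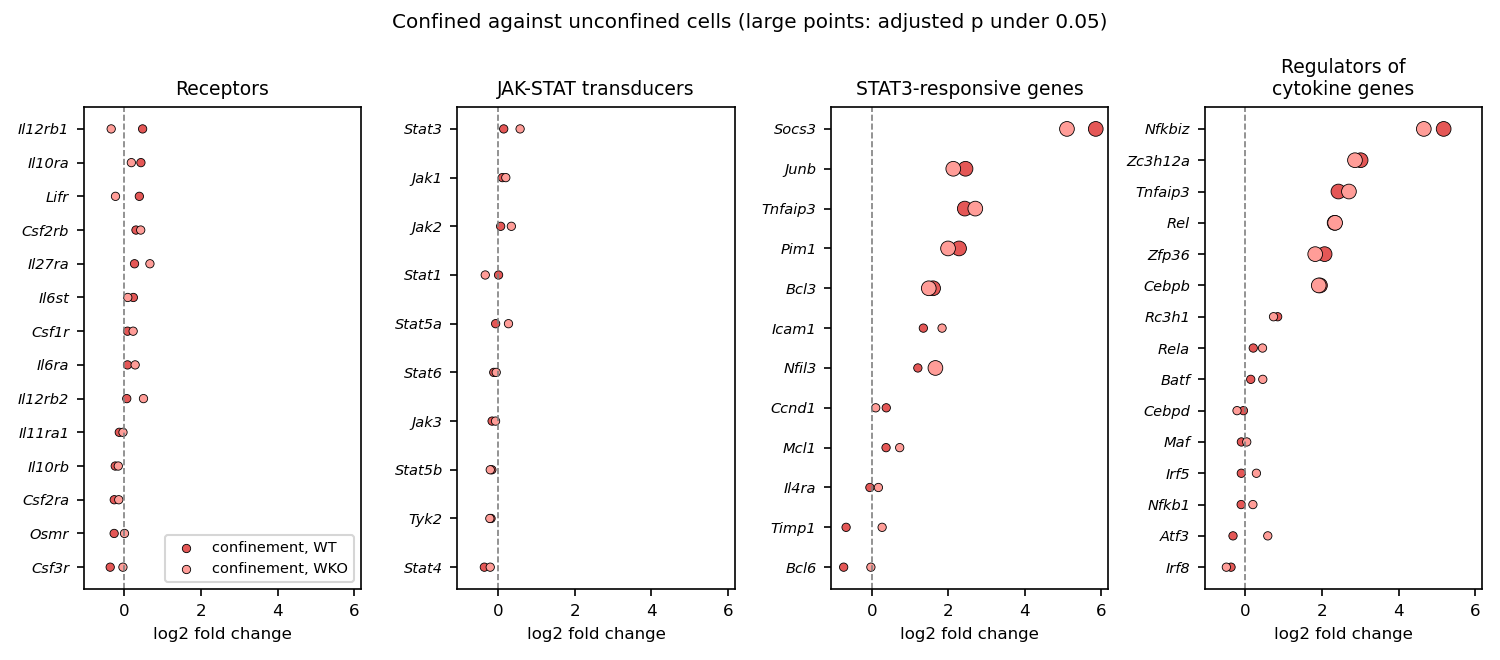
Log2 fold change with confinement (horizontal axes) of receptors, JAK-STAT transducers, STAT3-responsive genes and cytokine regulators, in WT (dark) and WKO (light); large points have a limma adjusted p under 0.05. No receptor or JAK-STAT gene has a large point, and Socs3 (5.85 in WT) and Nfkbiz (5.18 in WT) lie farthest to the right.

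The genes with the most similar pattern over the 10 libraries were looked up among 10214 genes with a mean of at least 50, by Pearson's r of log2 values, as a description. For Osm these were Junb (r = 0.980), Zc3h12a (0.973) and Pim3 (0.973). For Il10 they were Zfp948 (0.984), Clec4e (0.983) and Cd40 (0.983), and for Csf1 they were Ehd1 (0.975), Cdc42ep4 (0.966) and Srgn (0.956). For Lif they were Pltp (0.952), Bmp1 (0.939) and Selplg (0.938); reads of Pltp are uncertain because of an overlapping gene on the other strand. Among the 4 cytokine genes themselves, r was 0.876 for Il10 with Osm, 0.822 for Il10 with Csf1, 0.659 for Osm with Csf1, and between 0.349 and 0.440 for Lif with the other 3. All these values come from the same 10 libraries and share their groups and composition, so that they hold the group differences described above.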

How the data were processed

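Polyadenylated RNA from 5 ng of total RNA was sequenced in 10 libraries. Per the submitters' processing notes, FastQC, Trim Galore and STAR were used with GRCm38 (mm10); the counting tool, annotation and use of strand are not given in the sources used here. The values the authors deposited are read counts on a normalized linear scale (a signal). In each library 100% of the values were whole multiples of 1 read (tolerance 1e-06), and size factors recomputed with DESeq2 1.42.0 matched to 1.78e-15, so the values are reads divided by 1 factor per library.

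Genes were tested if their mean over the libraries was at least 10 normalized reads, as log2(value + 1), which understates the change of low genes, with limma 3.58.1 in R 4.3.3: 1 mean per group over all 10 libraries (6 residual degrees of freedom), moderation with a mean-variance trend, and Benjamini-Hochberg adjustment over 12455 genes. Replicates differed by more than sampling noise (chi-square per degree of freedom 7.56 to 78.3). edgeR 4.0.16, DESeq2, other filters and scalings, covariates and leaving out libraries were alternatives.

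The cytokine genes, lists and tests were chosen with earlier results of these data known. Named beside the 8 genes are up to 5 passing genes per list and comparison by smallest p, up to 2 of highest mean in a list with none, and the 3 genes with the highest r per tested gene. Coordinates and exon lengths come from GENCODE M21 (GRCm38), which lacks 140 tested identifiers. No exon of the 8 genes overlaps another gene's, and blastn 2.17.0 found no other transcript at 95% identity over 20% of their length.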

Additional observations from a re-analysis of the deposited data

Results flagged for a closer look

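For Il12b, every confined WT library lay below the mean of the unconfined WT libraries, and every confined WKO library above that of the unconfined WKO libraries. The confinement effects of the genotypes differed (WKO minus WT) by 4.53 on the log2 scale with limma over all genes with a read (adjusted p = 0.960). The values behind it are small: 4.75 and 2.88 in unconfined WT, 0, 0 and 1.61 in confined WT, 0 and 0 in unconfined WKO, and 1.57, 4.21 and 21.6 in confined WKO libraries.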

How the results depend on the processing

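The averaged confinement effects of Il10 and Osm kept their direction and passed in 24 of 24 alternatives, and the comparison of the effects between genotypes called none of the 8 genes in any of 24. The count of genes called with confinement in WT (2 as reported) was 1 with edgeR on recovered reads, with edgeR at a mean of at least 1 and with no filter, and 0 without the mean-variance trend; without 1 library it lay between 0 and 3. Csf1, not called there as reported, passed in 5 of 25 alternatives: with the stromal score as a covariate (2.12, limma adjusted p = 0.0225), with only the compared groups (1.09, 0.00924), without confined WKO replicate 5 (0.00298), without replicates 1 and 5 (0.00246) and with the block described below. Its averaged effect passed in 7 of 24: with array weights (0.73, limma adjusted p = 0.0459), the stromal score (1.53, 0.00347), the block (0.78, 0.00841), without replicates 1 and 5 (0.65, 0.0108), and without replicate 1, 2 or 5. The count with confinement in WKO (2 as reported) was 0 without the trend and 0 with only the compared groups fitted, and between 0 and 2 without 1 library. WKO against WT in confined cells (0 as reported) gave 1 with DESeq2 and 1 without confined WKO replicates 1 and 5, and between 0 and 1 without 1 library; the same settings gave 1, and between 0 and 1, for the genotype effect averaged over conditions. The alternatives on edgeR with a mean of at least 1 and on leaving out confined WKO replicates 1 and 5 were chosen after seeing the data; edgeR with no filter was not used because its prior degrees of freedom were infinite.

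Several values that did not pass changed sign. Lif with confinement in WT was -0.019 with DESeq2 and -0.016 with edgeR at a mean of at least 1, and between -0.68 and 0.91 without 1 library; in WKO it was -1.25 with array weights, -1.70 without confined WKO replicates 1 and 5, and between -0.51 and 1.47 without 1 library. Averaged over the genotypes it was -0.62 with array weights, -0.79 without replicates 1 and 5, and between -0.20 and 0.79 without 1 library. Between the genotypes in unconfined cells, Osm lay between -0.21 and 1.17 and Csf1 between -0.34 and 0.023 without 1 library. In confined cells Csf1 was 0.22 with edgeR, 0.24 with DESeq2, 0.23 with edgeR at a mean of at least 1, and between -0.88 and 0.30 without 1 library. With the stromal score as a covariate, Il10 was -0.23 between the genotypes in unconfined and -0.96 in confined cells, Osm -0.28 and Lif -1.66 in confined cells, Lif -0.63 averaged over conditions, and the difference between the confinement effects was -0.73 for Il10, -0.45 for Osm, -2.07 for Lif and -1.18 for Csf1. Without confined WKO replicates 1 and 5 the genotype differences in confined cells were -0.28 for Il10, -0.12 for Osm and -0.041 for Lif, and the differences between the confinement effects were -0.81 for Il10, -0.60 for Osm, -1.81 for Lif and -0.89 for Csf1. With array weights the latter were -0.53, -0.45, -1.26 and -0.67. Without 1 library they lay between -0.31 and 1.30 for Il10, -0.61 and 0.77 for Osm, -0.62 and 1.36 for Lif, and -0.72 and 0.46 for Csf1, and for Csf1 they were -0.0051 with TMM and -0.0045 with upper-quartile scaling. The stromal score did not overlap between WT and WKO libraries within either condition, so that estimates with it cannot separate genotype from the markers. Within WT it also did not overlap between conditions. Confinement estimates in WT with this score, such as that of Csf1, therefore cannot be separated from the markers. The causes were not tested.

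Whether replicate numbers pair the libraries is not given in the sources used here. Correlations of same-numbered libraries' deviations from their group means lay between -0.11 and 0.08. In groups of 2 libraries the deviations mirror each other and are not independent, so that these values do not exclude pairing. With the number as a replicate block, which leaves 2 residual degrees of freedom, Il10 was -0.18 between the genotypes in confined cells and -0.71 in the difference between the confinement effects, where Lif was -0.17 and Csf1 -0.52. Csf1 passed with confinement in WT (log2 fold change 1.04, limma adjusted p = 0.0109). Fitting only the compared groups does not apply to the averaged effects or to the difference between effects, and a minimum mean of 50 removed Lif. Outside confined WKO cells, values of Il6, Csf3, Il12b and Il23a lay near or under the 3-read floor.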
